A study of Homo sapiens with 6 samples.

Results

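The genes described here are 9 negative regulators of the cell cycle: the CDK inhibitors Cdkn1b and Cdkn1c of the CIP/KIP family, the 4 INK4 inhibitors Cdkn2a, Cdkn2b, Cdkn2c and Cdkn2d, and the pocket proteins Rb1, Rbl1 and Rbl2. They were picked by symbol, with earlier results of these data known, and are 9 of the 22989 genes in the count table. RNA was sequenced from 6 libraries that the labels give as MDA-MB-231 PTX-resistant BCSC, 3 labelled LINC00115 KD and 3 labelled WT. MDA-MB-231 is an established human triple-negative breast cancer cell line, PTX is paclitaxel, and BCSC are the breast cancer stem-like cells that the study sorted for high aldehyde dehydrogenase (ALDH) activity. By the labels, LINC00115, a long non-coding RNA, was knocked down in the KD cells (by short hairpin RNA in the paper), and both groups shared the paclitaxel-resistant background. The paper's figure of its sequencing result names a single hairpin. The titles number the 3 KD libraries as replicates, while their column names resemble the hairpin names of the paper. The controls are called WT, without a statement that they carried a control hairpin. Nothing in the labels says that libraries of a group came from separate cultures, so that p-values measure the spread between these libraries, which may be technical. The comparison asks how the transcripts of these regulators differ when LINC00115 is depleted.

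Passage from G1 into S phase is driven by cyclin-dependent kinases, which phosphorylate the pocket proteins and so release the E2F transcription factors that these proteins hold in check. INK4 inhibitors bind CDK4 and CDK6 and keep them from D-type cyclins, whereas CIP/KIP inhibitors bind whole cyclin-CDK complexes, those of CDK2 above all. Rb1 restrains the activating E2F factors, whereas Rbl1 (p107) and Rbl2 (p130) mainly work with E2F4 and, bound to the MuvB core, form the DREAM complex that silences cell cycle genes in resting cells. In breast cancer this pathway is the target of CDK4/6 inhibitors, and loss of RB1 or of the INK4 locus is common in tumours.

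The libraries held between 36979221 and 38799331 counts, and counts were scaled with TMM factors between 0.990 and 1.01. A level is given as normalized CPM, counts scaled to the TMM-adjusted library total, in the order of replicates 1, 2 and 3. Of the table's genes, 13497 passed the expression filter and went into edgeR's quasi-likelihood test, and a gene was called at a Benjamini-Hochberg adjusted p-value under 0.05 with a fold change over 2. The table writes its symbols in the style of mouse genes, with 4648 Gm names and 1129 Rik names, while the labels and the paper name human cells and human genome builds. Such names are placeholders of mouse annotation, and 276 of the genes bearing one had at least 100 counts in every library. Only 16 of the 22989 symbols equal a human symbol as written, so the gene names are those of a mouse annotation. The counts may therefore be of mouse and not human transcripts. The species of the cells was not settled here, and each value below is that of the row with the printed symbol. All 9 symbols equal a human symbol apart from case. The table has 0 genes named LINC00115, so the knockdown could not be checked and each direction rests on the labels. The mesenchymal-like markers Vim, Cd44, Axl, Cav1 and Met summed to between 5341 and 5410 normalized CPM in WT and between 5825 and 5967 in KD libraries. Most of these sums was Vim, with means of 3418 in WT and 3736 in KD libraries. Cd44 (log2 fold change −0.05) was the 1 of these markers that did not pass the adjusted p-value. The stem cell markers Aldh1a3, Sox2 and Prom1 had at most 4 counts in any library. The remaining marker of that list, Aldh1a1, had 12, 8 and 17 counts in WT and 52, 39 and 41 in KD libraries and was called higher (log2 fold change 1.82).

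Cdkn1b and Cdkn2d fell to 0.343 and 0.368 of their WT level and were the 2 members called lower, with 0 called higher, where 9.98% of all genes tested were called lower and 10.2% higher. At the adjusted p-value alone, 4 members fell (Cdkn1b, Cdkn2c, Cdkn2d and Rbl2) and 1 rose (Rbl1), against 36.7% of all genes in each direction, while Rb1 did not pass. The other 3, Cdkn1c, Cdkn2a and Cdkn2b, were too scarce to be tested. The median log2 fold change of the 6 members tested was −0.46, and that of all genes tested −0.01. In absolute size the medians were 0.55 for the members and 0.45 for all genes.

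Cdkn1b encodes p27, the inhibitor that holds CDK2 complexes inactive in resting cells. Its level was 92.8, 94.4 and 90.3 normalized CPM in the WT libraries and 30.1, 30.0 and 35.2 in the KD libraries. Every KD library lay far below every WT library, and the third KD library was the highest of its group. The means were 92.5 ± 2.05 and 31.8 ± 2.99 normalized CPM (SD, n = 3 libraries each). This gave a log2 fold change of −1.54 (95% interval −1.66 to −1.43, SE 0.06, adjusted p = 1.50e-22 by edgeR's quasi-likelihood test), a 2.91-fold decrease. Among all genes tested, 11.3% had a larger absolute log2 fold change than Cdkn1b.

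Cdkn1c encodes p57, an imprinted inhibitor expressed from the maternal allele in many embryonic tissues. It had 0, 1 and 0 counts in the WT libraries and 1, 0 and 7 counts in the KD libraries. The 7 counts of KD replicate 3 were the only value above 3 counts, the most that a count of 0 leaves possible. That limit equals 0.0776 to 0.0817 normalized CPM in these libraries and covers counting error only. A difference in Cdkn1c was therefore not detectable at this depth, and the p57 transcript was close to absent from both groups.

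Cdkn2d encodes p19, an INK4 protein made of ankyrin repeats. Its level was 50.5, 49.3 and 51.4 normalized CPM in the WT libraries and 20.9, 16.8 and 18.0 in the KD libraries, again without overlap. The means were 50.4 ± 1.01 and 18.6 ± 2.13 normalized CPM (SD, n = 3 each). The log2 fold change was −1.44 (95% interval −1.59 to −1.29, SE 0.07, adjusted p = 6.80e-19 by edgeR's quasi-likelihood test), a 2.71-fold decrease, and 12.5% of all genes tested moved further.

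Cdkn2c encodes p18, the close relative of p19 among the INK4 proteins. Its level was 88.9, 86.3 and 88.2 normalized CPM in the WT libraries and 77.0, 81.8 and 81.1 in the KD libraries. The groups did not overlap, but they lay close together, with KD replicate 1 the lowest. The log2 fold change of −0.14 (95% interval −0.23 to −0.04, SE 0.05) passed the adjusted threshold (adjusted p = 0.00870, edgeR's quasi-likelihood test), a 1.10-fold decrease. Without KD replicate 1 the change was −0.10 and no longer passed (adjusted p = 0.0836, edgeR's quasi-likelihood test). Of all genes tested, 83.3% moved further, so Cdkn2c was among the steadier genes.

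Cdkn2a, which encodes p16 and the p53 regulator ARF, and its neighbour Cdkn2b, which encodes p15, had almost no counts. Whether these genes were present in the cells but not transcribed was not tested. Cdkn2a had 1 count in all, in WT replicate 2, out of 226591478 counts in the 6 libraries together. Cdkn2b had 3 counts in all, with 0, 0 and 1 in the WT libraries and 1, 1 and 0 in the KD libraries. Neither gene had more than 1 count in any library. Of 5 listed neighbours of this locus, 2 were in the table, and both had clear levels. Mtap, an enzyme of methionine salvage, had 495 ± 36.2 normalized CPM in WT and 402 ± 8.26 in KD libraries (SD, n = 3 each), and its log2 fold change of −0.30 passed the adjusted threshold. Klhl9, an adaptor of a ubiquitin ligase, had 49.6 ± 2.21 and 40.8 ± 2.34 normalized CPM (SD, n = 3 each) and also fell, by 0.28 on the log2 scale.

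**Figure D1:**
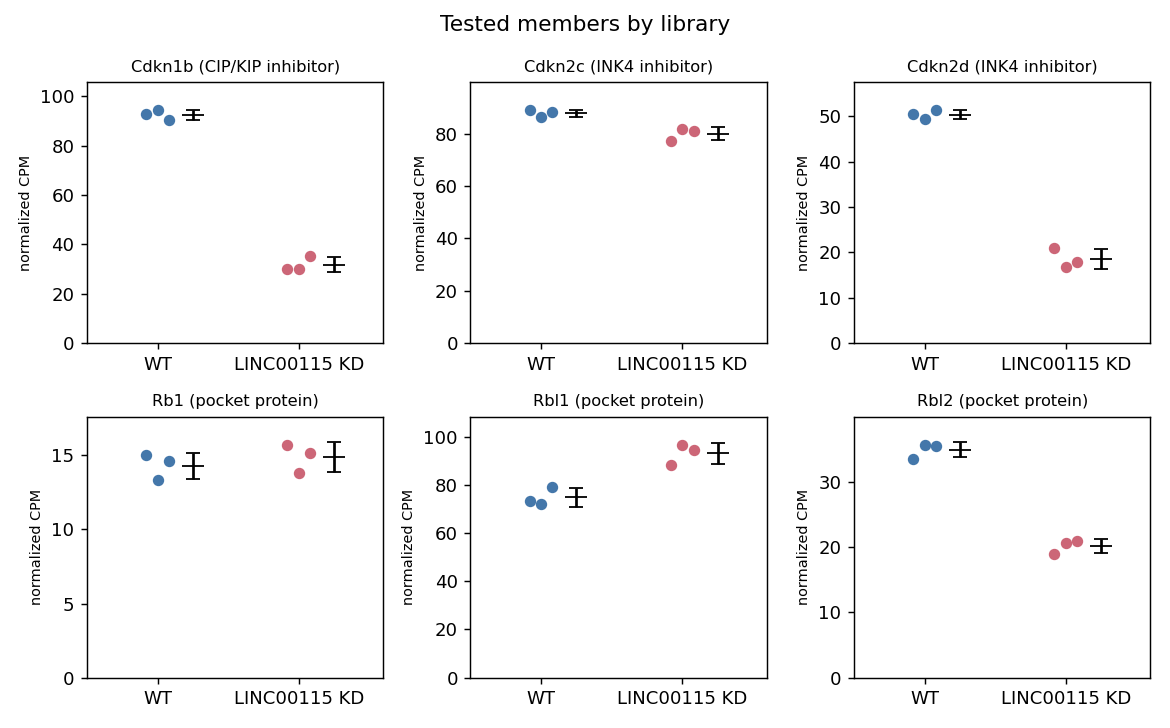
Normalized CPM (vertical axes, from 0) of the 6 members tested, with 1 point for each of 3 WT and 3 LINC00115 KD libraries and the mean ± SD beside them. Cdkn1b, Cdkn2d and Rbl2 lie lower in every KD library, Cdkn2c slightly lower, Rbl1 higher, and the groups of Rb1 overlap.

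Of the pocket proteins, Rbl2 fell, Rbl1 rose and Rb1 did not pass the threshold. Rbl2, which encodes p130, the pocket protein of resting cells, had 33.5, 35.6 and 35.5 normalized CPM in the WT libraries and 18.9, 20.6 and 20.9 in the KD libraries. The groups were well apart. The means were 34.9 ± 1.18 and 20.1 ± 1.06 normalized CPM (SD, n = 3 each), and the log2 fold change was −0.79 (95% interval −0.94 to −0.65, SE 0.07, adjusted p = 5.73e-12 by edgeR's quasi-likelihood test). This 1.73-fold decrease is under the fold change of 2 that a call requires, and 28.8% of all genes tested moved further.

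Rbl1, which encodes p107 and is itself a textbook E2F target gene, was the member that rose. Its level was 73.3, 72.0 and 79.2 normalized CPM in the WT libraries and 88.2, 96.5 and 94.6 in the KD libraries, with every KD library above every WT library. The log2 fold change was 0.32 (95% interval 0.22 to 0.41, SE 0.05, adjusted p = 6.18e-07 by edgeR's quasi-likelihood test), a 1.24-fold increase, and 63.5% of all genes tested moved further.

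Rb1, the retinoblastoma tumour suppressor, had 15.0, 13.3 and 14.6 normalized CPM in the WT libraries and 15.7, 13.8 and 15.2 in the KD libraries. The groups overlapped. Its log2 fold change was 0.06 (95% interval −0.14 to 0.25, adjusted p = 0.594, edgeR's quasi-likelihood test), and the interval leaves room for a change between a decrease of 0.14 and an increase of 0.25 on the log2 scale. Among all genes tested, 92.8% had a larger absolute log2 fold change. Non-overlapping groups were thus seen in 4 members below and 1 above their WT level, where 37.8% of all genes tested did not overlap in each direction.

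**Figure D2:**
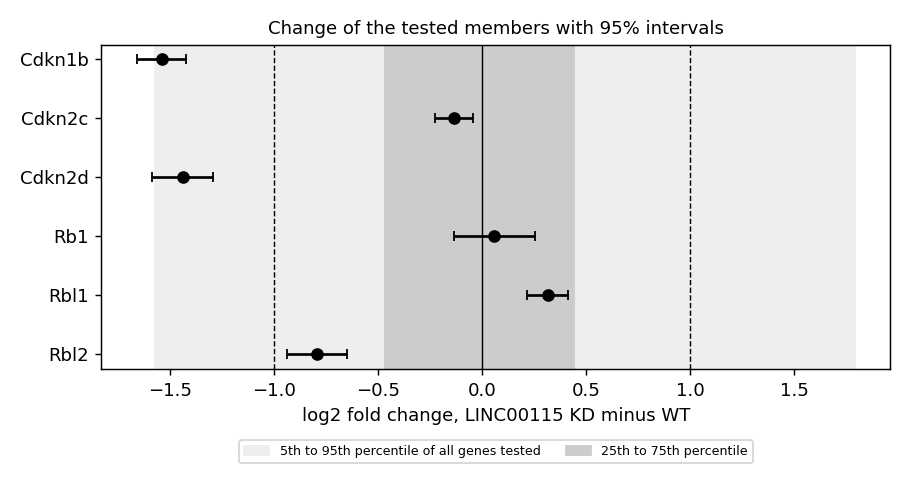
Log2 fold change (KD minus WT, horizontal axis) of the 6 members tested with 95% intervals, over the range of all 13497 genes tested, whose 5th and 95th percentiles were −1.57 and 1.79. Dashed lines mark a fold change of 2, which Cdkn1b and Cdkn2d pass, and the interval of Rb1 spans 0.

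The upstream 250 bases of the human genes are shown for the member that rose and the 2 called lower. They come from RefSeq on GRCh38.p14, while the counts rest on a table with mouse-style symbols, so they are shown only as the human counterparts of these genes. The windows are RBL1 at chr20:37095998-37096247 (minus strand), CDKN1B at chr12:12717118-12717367 (plus strand) and CDKN2D at chr19:10568980-10569229 (minus strand), each written toward the annotated start site. Capitals mark matches to an E2F motif, searched as TTTCCCGC, TTTGGCGC, TTTCGCGC or TTTGCCGC on both strands.
RBL1: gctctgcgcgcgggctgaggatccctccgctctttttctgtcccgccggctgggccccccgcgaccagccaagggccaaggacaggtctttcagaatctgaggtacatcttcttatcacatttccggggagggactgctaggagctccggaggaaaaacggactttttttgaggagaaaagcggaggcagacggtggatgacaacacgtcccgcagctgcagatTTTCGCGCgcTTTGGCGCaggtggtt
CDKN1B: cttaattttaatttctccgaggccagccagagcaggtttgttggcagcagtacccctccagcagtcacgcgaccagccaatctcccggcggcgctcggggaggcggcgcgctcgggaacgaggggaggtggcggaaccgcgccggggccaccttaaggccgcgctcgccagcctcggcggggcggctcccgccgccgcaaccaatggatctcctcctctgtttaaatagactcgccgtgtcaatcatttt
CDKN2D: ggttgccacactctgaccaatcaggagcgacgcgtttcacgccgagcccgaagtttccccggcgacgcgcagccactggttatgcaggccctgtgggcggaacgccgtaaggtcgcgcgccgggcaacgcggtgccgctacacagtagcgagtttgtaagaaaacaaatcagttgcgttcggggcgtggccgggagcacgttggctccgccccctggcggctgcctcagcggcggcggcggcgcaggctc

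The RBL1 window held 2 matches, starting 26 and 16 bases before the start site. Of the 9 members, 8 had windows in the table (12 windows in all). Within these windows RBL1 was the 1 member with a match, while 2.79% of all 35116 windows held one. Other start sites of the members were not searched. The window for RB1 was chr13:48476200-48476449 (plus strand), and whether it holds the main RB1 promoter was not checked. A FOXO motif, GTAAACA on both strands, was in 0 of the 8 members and in 2.98% of all windows. A match is a description of the letters and not a site of binding, and its absence says only that these letters are not in the window. Whether a match goes with the direction of change was not tested.

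Ratios between members within a library do not depend on scaling, and 5 pairs could be compared. The count ratio of Rbl1 to Rbl2 was 2.19, 2.02 and 2.23 in the WT libraries and 4.67, 4.69 and 4.53 in the KD libraries, a shift of 1.11 on the log2 scale. Both groups were tight, and the balance of p107 to p130 transcripts was 2.16-fold higher in KD libraries. Rbl2 over Rb1 shifted by −0.85 and Rbl1 over Rb1 by 0.26 on the log2 scale. Of the INK4 pair, the ratio of Cdkn2c to Cdkn2d was 1.76, 1.75 and 1.72 in WT and 3.68, 4.87 and 4.51 in KD libraries, a 2.48-fold shift. In all 4 of these pairs the groups did not overlap, and each had p = 0.1 in a two-sided exact permutation test over 3 against 3 libraries (adjusted over the 5 pairs 0.1), the smallest p this design allows. The fifth pair, Cdkn1c over Cdkn1b, rests on the 0 to 7 counts of Cdkn1c and its size is not read here. The count ratios are not corrected for transcript length, so they are compared between groups and not with 1.

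**Figure D3:**
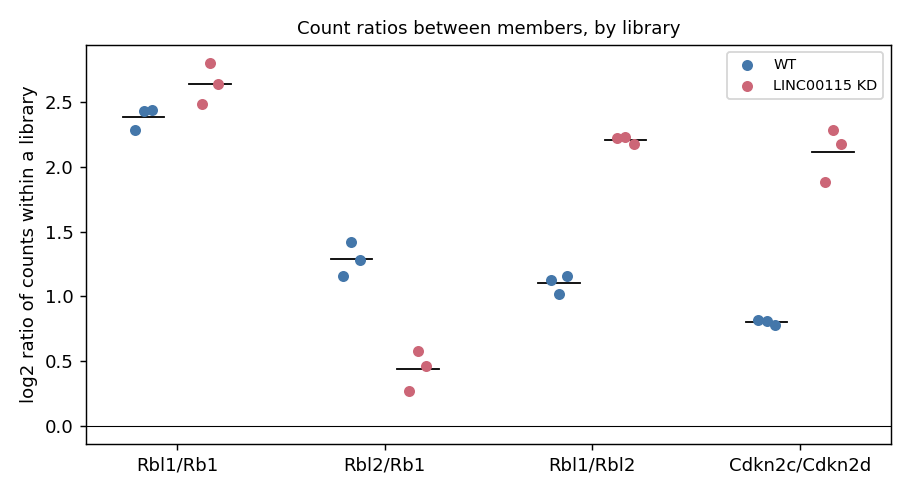
Log2 ratio of counts of 2 members within each library (vertical axis), with 1 point per library and a bar at the mean of 3 WT or 3 LINC00115 KD libraries. Rbl1/Rbl2 and Cdkn2c/Cdkn2d lie higher in every KD library and Rbl2/Rb1 lower, with a smaller rise of Rbl1/Rb1.

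Around the members, 10 lists of pathway genes were counted, with 90 genes listed and 83 tested. At the adjusted p-value alone 52 fell and 17 rose, with 3 called lower and 4 called higher, and their median log2 fold change was −0.20. Over all genes tested, 36.7% passed the adjusted p-value in each direction, 9.98% were called lower and 10.2% higher, so that the lists held a smaller share of calls than the whole table. The kinases that the inhibitors bind fell modestly. Cdk4 went from 380 ± 8.72 to 242 ± 5.66 normalized CPM (SD, n = 3 each; log2 fold change −0.65), Cdk6 changed by −0.35 and Cdk2 by −0.28 on the log2 scale. Ccnd1, cyclin D1, rose from 1323 ± 67.0 to 1729 ± 41.0 normalized CPM (SD, n = 3 each), with a log2 fold change of 0.39. In this list of cyclins and kinases 7 of 10 genes fell and 3 rose at the adjusted p-value. Of those that rose, Ccne1 (log2 fold change 0.17) did not pass with upper quartile or library-size scaling or without WT replicate 1, WT replicate 3 or KD replicate 2. The gene called higher, Ccnd2, had only 3, 1 and 4 counts in WT and 25, 23 and 28 in KD libraries.

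Cdkn1a, which encodes p21, the CIP/KIP inhibitor induced by p53, fell: its level was 257 ± 20.8 in WT and 65.9 ± 2.49 in KD libraries (normalized CPM, SD, n = 3 each). Its log2 fold change of −1.97 (SE 0.05, adjusted p = 3.21e-28 by edgeR's quasi-likelihood test) was of the same direction as those of Cdkn1b and Cdkn2d. Of the E2F and DP factors, 3 of 10 fell and 4 rose at the adjusted p-value with 0 called, close to the 36.7% of all genes in each direction. E2f1, an activating E2F, changed by −0.25 and E2f4, the usual partner of p107 and p130, by 0.39 on the log2 scale. Of those that fell, E2f7 (−0.19) did not pass without WT replicate 2 or without KD replicate 1. Among the MuvB subunits and their partners 3 of 7 fell and 2 rose, again with 0 called. Of the 2 that rose, Lin54 (log2 fold change 0.11) did not pass in 9 alternative runs. These included upper quartile and library-size scaling, no count filter, the replicate block and the DESeq2 test.

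The list for turnover and transcription of p27 had 7 of 9 tested genes lower and 2 higher at the adjusted p-value, against 36.7% of all genes in each direction. Skp2, the F-box protein that marks p27 for degradation, changed by −0.30 on the log2 scale. Foxo3, a transcription factor known to activate CDKN1B, was called lower, from 125 ± 4.90 to 52.8 ± 2.81 normalized CPM (SD, n = 3 each; log2 fold change −1.24). Kpna1, an importin of nuclear transport, was called higher, with a log2 fold change of 1.31.

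Of the Polycomb and other repressors of the INK4 locus, 5 of 10 were lower and 1 was higher at the adjusted p-value, against 36.7% of all genes in each direction, and 0 were called. The decreases of Kdm2b (log2 fold change −0.66), Rnf2 (−0.48) and Cbx7 (−0.45) and the increase of Ring1 (0.43) were near or above the median absolute change of all genes, 0.45. Tbx2 (0.78) did not pass. Ezh2 changed by −0.16 on the log2 scale, which did not pass without WT replicate 3 or without KD replicate 1. Id1 (−0.15) did not pass without KD replicate 2. Bmi1 had a log2 fold change of 0.03 (95% interval −0.06 to 0.12), which did not pass and whose sign turned under upper quartile scaling. In the imprinted domain around Cdkn1c, 1 of 5 tested genes fell and 1 rose. Kcnq1ot1, the antisense RNA of the imprinting centre, had 8.07 ± 0.756 normalized CPM in WT and 7.94 ± 1.91 in KD libraries (SD, n = 3 each), and its log2 fold change of −0.02 did not pass. Slc22a18 was called higher (log2 fold change 2.20), on 10 to 21 counts in WT and 58 to 94 counts in KD libraries. Kcnq1, which Kcnq1ot1 overlaps on the other strand, had 0 to 8 counts, and the use of strand in counting is not given in the sources used here.

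Genes that the pocket proteins repress went mostly down. Of 16 E2F target genes of G1/S, 11 fell and 3 rose at the adjusted p-value (median log2 fold change −0.19), and Rrm2, a subunit of ribonucleotide reductase, was the 1 gene called, from 149 ± 11.0 to 359 ± 10.6 normalized CPM (SD, n = 3 each; log2 fold change 1.27). Of 12 DREAM target genes of G2/M, 11 fell and 1 rose (median −0.35), and the 1 gene called was Bub1, a spindle checkpoint kinase, from 312 ± 3.01 to 123 ± 1.19 normalized CPM (SD, n = 3 each; log2 fold change −1.34). These counts stand against 36.7% of all genes in each direction. Of the G1/S genes that fell, Mcm2 (−0.13) did not pass without KD replicate 2, and Pola1 (−0.19) not without KD replicate 3.

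**Figure D4:**
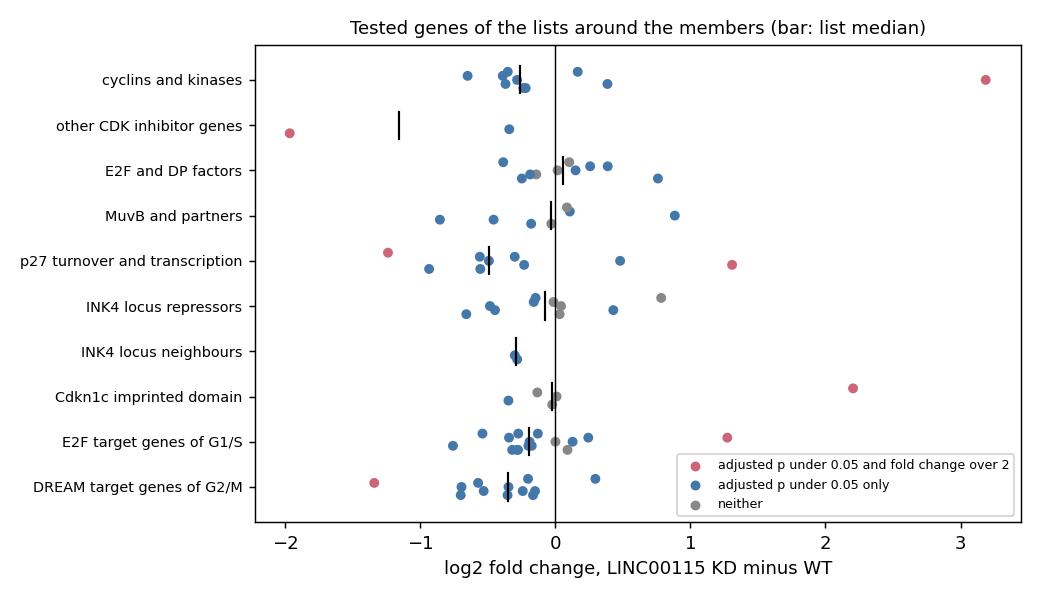
Log2 fold change (KD minus WT, horizontal axis) of the tested genes in 10 lists around the members, with 1 point per gene, coloured by whether it passed the adjusted p-value and a fold change of 2, and a bar at the list median. Medians lie between −1.15 for the 2 other CDK inhibitor genes and 0.06 for the E2F and DP factors. The first of these is the midpoint of Cdkn1a (−1.97) and Cdkn3 (−0.34).

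Markers of other cell types also moved with the groups. Lung epithelial markers summed to between 1.09 and 1.24 normalized CPM in WT and between 70.5 and 81.4 in KD libraries, with 8 of 8 higher in every KD library, led by Scgb1a1 at 43.6 normalized CPM. Scgb1a1, Sftpc, Sftpa1, Sftpb, Sftpd and Scgb3a2 had 0 counts in every WT library, unlike Napsa and Foxj1. In KD libraries Scgb1a1 had 1516 to 1843 counts. Kidney markers summed to between 15.7 and 18.4 in WT and between 38.6 and 42.5 in KD libraries, with 5 of 8 higher and 1 lower in every KD library. Most of the WT sum was Aqp1 (8.21) and Cubn (8.28 normalized CPM), and Cubn was the 1 lower. Kap and Umod had 0 counts in every WT library and 311 to 466 and 76 to 112 counts in KD libraries. Over all genes tested, 37.8% lay higher and 37.8% lower in every KD library. Leukocyte markers rose in 2 of 7 genes, from sums between 1.30 and 2.68 to sums between 9.94 and 10.7 normalized CPM, with Cd3e at 0 counts in every library. The endothelial sum was 0.715 to 1.19 in WT and 57.3 to 59.7 in KD libraries, nearly all of it Cdh5, and the fibroblast sum was 175 to 193 in WT and 76.4 to 78.4 in KD libraries, mostly Pdgfra. Breast epithelial markers summed to between 615 and 627 in WT and between 988 and 1038 in KD libraries, with Epcam at no more than 5 counts. The part of these markers in the members' changes was not tested. In bulk RNA, fewer cells of a type and less RNA per cell cannot be told apart.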

How the data were processed

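Whole-number read counts per gene were deposited by the authors without normalization. According to the paper's methods, reads were trimmed of adapters and aligned by HISAT2 (default settings) to hg19, and the submitters' processing notes name hg38, HISAT2, featureCounts and DESeq2. The annotation is not named in the sources used here, although the symbols are those of mouse genes. The methods name RNeasy and NEBNext kits where the labels name TRIzol and a SMARTER kit. Columns were matched to samples by their description.

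Counts were analysed in R 4.3.3 with edgeR 4.0.16 (filterByExpr, minimum count 10, minimum total 15, TMM, group only), and DESeq2 1.42.0 was an alternative. Standard errors (SE) were the absolute log2 fold change over the root of the F statistic. Ratios used counts plus 0.5. Within a group, library pairs differed by 3.88 to 7.60 times sampling noise, so none was a copy. The scripts were tested on simulated counts. Members and lists were chosen with earlier results of these data known. All 9 members are named, with 12 preset pathway genes and up to 4 called genes of each list. Klhl9, Lin54, Ccne1, Kcnq1, Kdm2b, Rnf2, Cbx7, Ring1, Tbx2, E2f7, Id1, Mcm2, Pola1, Cdkn3 and the markers named were chosen after their values were seen. Same-numbered WT and KD libraries did not deviate together (r = 0.0135, −0.0194 and −0.0202 across genes). A marker gene counted in the lists is not reported here.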

Additional observations from a re-analysis of the deposited data

How the results depend on the processing

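Calls at the adjusted p-value for Cdkn1b, Cdkn2d and Rbl2 kept their direction and passed under every alternative run, with log2 fold changes from −1.62 to −1.49, from −1.53 to −1.36 and from −0.84 to −0.74. Rb1 stayed between 0.01 and 0.12 and did not pass in any. The scaling alternatives moved the median of all genes to between −0.05 and 0.00 on the log2 scale. With at least 10 counts in every sample, 903 genes were called higher instead of 1381 and 919 lower instead of 1347. This filter leaves out genes that are scarce in either group. Without the fold-change threshold, 4960 genes were lower and 4952 higher, with 4 members lower and 1 higher and with 52 pathway genes lower and 17 higher. In a test against a fold change of 1.5, Cdkn2c (−0.14) and Rbl1 (0.32) did not pass (adjusted p = 1 for both, edgeR), leaving 0 members higher, 9 pathway genes lower and 6 higher. With each replicate left out, Cdkn2c ranged from −0.15 to −0.10 and lost its call without KD replicate 1. With the replicate number as a block, 1316 genes were called lower and 1360 higher and the calls of the members were the same. Blocked, the ratio of Rbl1 to Rbl2 differed by 1.11 on the log2 scale (p = 0.25, exact sign-flip permutation, the smallest it can give). At 3 counts per library, depth limits Cdkn1c, Cdkn2a and Cdkn2b: without the filter, their adjusted p-values were 0.243, 0.461 and 0.763 (edgeR).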
